A study of Mus musculus with 27 samples.

Results

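Retinol binding, transport and oxidation was followed through 9 genes, Rbp4, Rbp7, Stra6, Aldh1a1, Aldh1a2, Crabp1, Crabp2, Rarb and Dhrs3, of the 24825 genes measured by RNA-seq. The set was chosen by its part in retinoid handling around Rbp4, and Rbp4 was selected on its measured FPKM, as the mRNA most reduced in cells with a deletion mutant of NFIA against full-length NFIA at day 7. For this reason the day 7 values of Rbp4 with these constructs, and the day 7 difference between mutant and full-length NFIA for all 9 genes, are described and not tested. The cells were C2C12, a mouse myoblast line that forms myotubes. They carried one of 3 retroviral vectors: an empty control, full-length NFIA, or NFIA Δpro#3, which lacks the C-terminal proline-rich stretch called pro#3. NFIA is a transcription factor that promotes the brown fat gene programme and represses the muscle one. Each construct was sampled at day 0, at day 7 of adipogenic culture, and at day 7 after 4 h with 10 µM forskolin, which raises cAMP and mimics adrenergic stimulation. There were 3 replicates in each of the 9 groups, giving 27 samples. All day 7 cells, control included, had received a 48 h cocktail of 1 µM rosiglitazone, 1 µM dexamethasone, 125 nM indomethacin, 0.5 mM isobutylmethylxanthine, 1 nM T3 and 850 nM insulin, and then insulin, T3 and rosiglitazone alone. Both NFIA forms were overexpressed in a single cell line, and nothing says that replicates were separate infections or cultures, so p-values measure only the spread between these samples, which may be technical.

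Vitamin A circulates as retinol bound to RBP4, and STRA6 is the membrane receptor that takes retinol from RBP4 into cells. Inside the cell RBP7 is one of the retinol carriers, retinol dehydrogenases make retinaldehyde, and ALDH1A1 and ALDH1A2 oxidise retinaldehyde to retinoic acid, while DHRS3 reduces retinaldehyde back to retinol. CRABP1 and CRABP2 bind retinoic acid in the cytoplasm, and RARB is a retinoic acid receptor whose own gene is a classical retinoic acid target. Adipose tissue stores retinoids and is, after liver, a major source of RBP4.

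In the mm9 genome (annotation NCBIM37) Rbp4 lies at chr19:38191110-38199811 on the minus strand and Aldh1a1 on the plus strand of the same chromosome at chr19:20676451-20717952. Dhrs3 (chr4:144482730-144518112, plus strand) and Rbp7 (chr4:148823796-148829087, minus strand) share chromosome 4 with Nfia. Crabp1 (chr9:54612555-54620917), Stra6 (chr9:57911595-58001803) and Aldh1a2 (chr9:71063596-71144050) are all on the plus strand of chromosome 9. Crabp2 (chr3:87752588-87757298, plus strand) and Rarb (chr14:17263356-17651381, minus strand) lie apart from the others. All 9 are annotated as protein-coding.

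Promoter sequence was taken from RefSeq (GRCm38.p6), and 15 promoters of 8 of the 9 genes were used, with none for Crabp2. Printed below, 5′ to 3′ on the coding strand, are the 250 bases before a start site for a carrier, an enzyme and a receptor that are described in detail: Rbp4 (chr19:38125322-38125571, minus strand), Aldh1a1 (chr19:20492333-20492582, plus strand) and Rarb (chr14:16575477-16575726, minus strand). Capitals mark the NFI sequence TTGGCA in Rbp4 and Aldh1a1, and in Rarb the letters GGTTCA and AGTTCA with 5 bases between them, the form of a retinoic acid response element.
Rbp4: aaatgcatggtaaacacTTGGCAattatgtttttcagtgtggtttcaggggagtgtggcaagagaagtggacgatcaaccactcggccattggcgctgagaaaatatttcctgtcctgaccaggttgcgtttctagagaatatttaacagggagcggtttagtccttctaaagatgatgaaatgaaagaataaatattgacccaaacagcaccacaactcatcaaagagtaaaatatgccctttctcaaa
Aldh1a1: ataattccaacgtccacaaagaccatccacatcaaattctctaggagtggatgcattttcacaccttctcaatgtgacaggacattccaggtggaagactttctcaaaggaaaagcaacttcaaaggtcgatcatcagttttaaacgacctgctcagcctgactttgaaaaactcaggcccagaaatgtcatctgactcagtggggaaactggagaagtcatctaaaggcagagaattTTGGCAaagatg
Rarb: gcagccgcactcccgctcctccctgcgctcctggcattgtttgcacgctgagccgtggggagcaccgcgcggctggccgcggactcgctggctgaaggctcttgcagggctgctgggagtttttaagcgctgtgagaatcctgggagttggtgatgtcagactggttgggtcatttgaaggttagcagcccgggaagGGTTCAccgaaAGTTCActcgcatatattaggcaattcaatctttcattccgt
TTGGCA, searched on both strands over 300 bases, was present in 14.1% of the 32851 RefSeq mouse promoters, so its presence at the first starts of Rbp4 and Aldh1a1 and at Rbp7 is a description of the letters only. Rbp4 and Aldh1a1 had 2 starts each, and the second of each held no TTGGCA. The sequences printed for both are those of the first start. The first Aldh1a1 window lies well upstream of the second (chr19:20601718-20601967, plus strand). The gene locations above are in another genome build. The Rarb pair, a search added after the promoter table was read, occurred in 2 promoters (0.00609%). None of the 15 promoters held the full NFI palindrome, TTGGC and GCCAA with 5 bases between (0.0365% of promoters), which shares its first letters with TTGGCA. None held the cAMP response sequence TGACGTCA (1.79%), AGGTCA (16.3%), or, as built from it, 2 copies of AGGTCA with 1 base (0.0396%), 2 bases (0.00913%) or 5 bases (0.00913%) between them.

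Levels are given as FPKM (fragments counted, scaled to transcript length and library depth), and changes as the log2 ratio of FPKM + 1, which understates the change of genes at low level. Calls needed an adjusted p below 0.05 (limma, Benjamini-Hochberg over all genes tested) and more than a 3-fold difference in FPKM + 1, and genes with a mean of at least 0.5 FPKM over the samples of the fit were tested. Depth was 9567769 to 27230965 fragments per library. Nfia itself was at 225 to 250 FPKM with full-length NFIA and 397 to 423 FPKM with Δpro#3 at day 0, and control libraries were at 0.253 FPKM or below at day 7 with and without forskolin. At day 7 Nfia stood at 457 to 528 FPKM with NFIA and 374 to 480 FPKM with Δpro#3, which overlap. After forskolin it stood at 497 to 594 FPKM with NFIA and 262 to 344 FPKM with Δpro#3. One control library, day 0 replicate 2, held 7.35 FPKM of Nfia against 0.879 and 0.175 FPKM in the other two. The summed FPKM of 10 adipocyte markers, all 10 of them detected, was 193 to 220 in control, 12880 to 14311 with NFIA and 384 to 1710 with Δpro#3 at day 7. Within Δpro#3, replicate 1 stood apart in this sum at day 7 (1710 against 384 and 450) and after forskolin (474 against 145 and 184). The sum of 8 myotube markers was 1380 to 1465 in control, 134 to 143 with NFIA and 398 to 408 with Δpro#3 at day 0. At day 7 it was 9973 to 11547 in control, 1776 to 2401 with NFIA and 11360 to 11841 with Δpro#3. Single markers of Δpro#3 then went both ways against control. Mean FPKM was lower for Myog (489 against 1275), Myod1 (41.4 against 73.2), Tnnt3 (931 against 1646) and Myh3 (239 against 291). It was higher for Acta1 (4832 against 2825), Ckm (513 against 393), Des (959 against 628) and Mylpf (3531 against 3376). Hepatocyte markers, of interest because liver is the main source of RBP4, summed to at most 0.211 FPKM, with Ttr at 0 in every library. Endothelial markers summed to at most 1.43 FPKM. Of 4 macrophage markers 3 were matched, only Cd68 reached 1 FPKM, and Ptprc was at 0 in all samples of 5 groups.

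**Figure D1:**
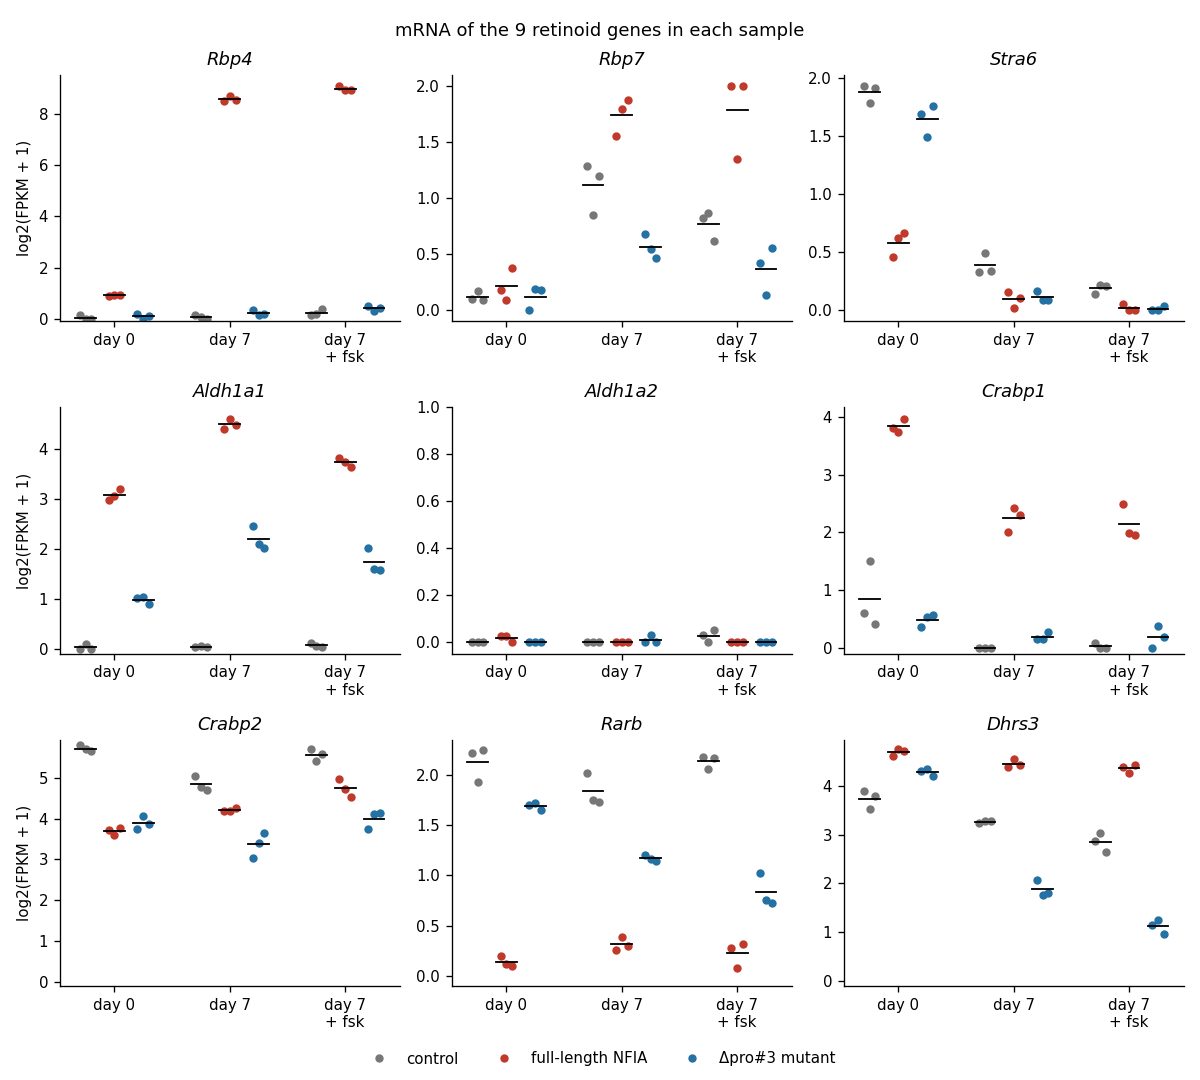
mRNA of the 9 genes in every sample, as log2(FPKM + 1) on the vertical axis, by time point on the horizontal axis and coloured by construct; each point is 1 sample and each short line a group mean. Rbp4 is high only in the NFIA samples at day 7, with or without forskolin, Aldh1a1 lies in the order NFIA, Δpro#3, control at every time point, and Aldh1a2 is near 0 throughout.

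Rbp4, the plasma carrier of retinol, was near the floor of detection in every control and every Δpro#3 sample, and abundant in NFIA cells at day 7. At day 7 the NFIA samples held 366, 418 and 374 FPKM (386 ± 28.4, SD, n = 3), the control samples 0.101, 0.0458 and 0 FPKM, and the Δpro#3 samples 0.273, 0.105 and 0.131 FPKM. These groups did not overlap for NFIA, whereas the Δpro#3 range began above the highest control value by a small margin. In fragments, 21244 were counted over the NFIA samples against 3 over the control samples, so the depth-adjusted ratio was 7455 (95% exact interval 2551 to 36155, counting error only). The same ratio of NFIA to Δpro#3 was 2603 (1415 to 5429). Rbp4 ranked between 150 and 178 among all 24825 genes in the NFIA samples at day 7.

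The forskolin samples were not used to choose Rbp4. After forskolin, Rbp4 was at 539, 489 and 484 FPKM with NFIA (504 ± 30.2), at 0.105, 0.125 and 0.303 FPKM in control and at 0.417, 0.229 and 0.334 FPKM with Δpro#3. The NFIA samples lay above all others, by 8.75 on the log2 scale against control, and the difference of Δpro#3 from NFIA was -8.57. Because Rbp4 passed the expression filter only through the NFIA samples, a call against that group was bound to follow, and its differences there are given without a test. Control and Δpro#3 samples overlapped, on 11 and 24 fragments (ratio of Δpro#3 to control 2.04, 95% exact interval 0.961 to 4.61).

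At day 0, before the adipogenic cocktail, Rbp4 was already at 0.842, 0.917 and 0.885 FPKM in the NFIA samples, compared with 0.0975, 0 and 0 FPKM in control and 0.141, 0 and 0.0892 FPKM with Δpro#3. All 3 NFIA samples lay above the other 6. The 71 fragments with NFIA against 3 in control gave a ratio of 29.3 (95% exact interval 9.64 to 146), and that against the 7 fragments with Δpro#3 was 11.8 (5.44 to 30.4). Two-sided exact permutation of 3 against 3 samples gave p = 0.1, the smallest this design allows. Between day 0 and day 7 the fitted difference in NFIA cells was 7.68 on the log2 scale. In the order of levels, the NFIA samples after forskolin lay above those at day 7 without overlap, those lay above NFIA at day 0, and the other 6 groups lay between 0 and 0.417 FPKM. In that low range the day 7 Δpro#3 samples began at 0.105 FPKM, just above the highest day 7 control at 0.101, on 10 and 3 fragments, and the control samples after forskolin lay above those at day 7 on 11 and 3 fragments. The adipocyte marker sum was also highest in the 2 groups where Rbp4 was abundant, but below them the orders differed: the sum was 65.7 to 72.3 with NFIA at day 0 and 193 to 220 in control and 384 to 1710 with Δpro#3 at day 7, where Rbp4 was lower. At day 7 the sum was mostly Fabp4 (mean 151 FPKM in control and 688 FPKM with Δpro#3). Mean Cebpa and Pparg were 39.0 and 14.2 FPKM with NFIA at day 0. At day 7 they were lower, at 8.63 and 5.95 FPKM in control and 10.8 and 8.12 FPKM with Δpro#3. Fabp4, Adipoq, Plin1, Cidec, Cd36, Retn and Cfd were instead higher in both of these day 7 groups, and Lipe only with Δpro#3. The part of the markers in the Rbp4 values was not tested, and in these bulk samples fewer cells of a type and less RNA per cell cannot be told apart.

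**Figure D2:**
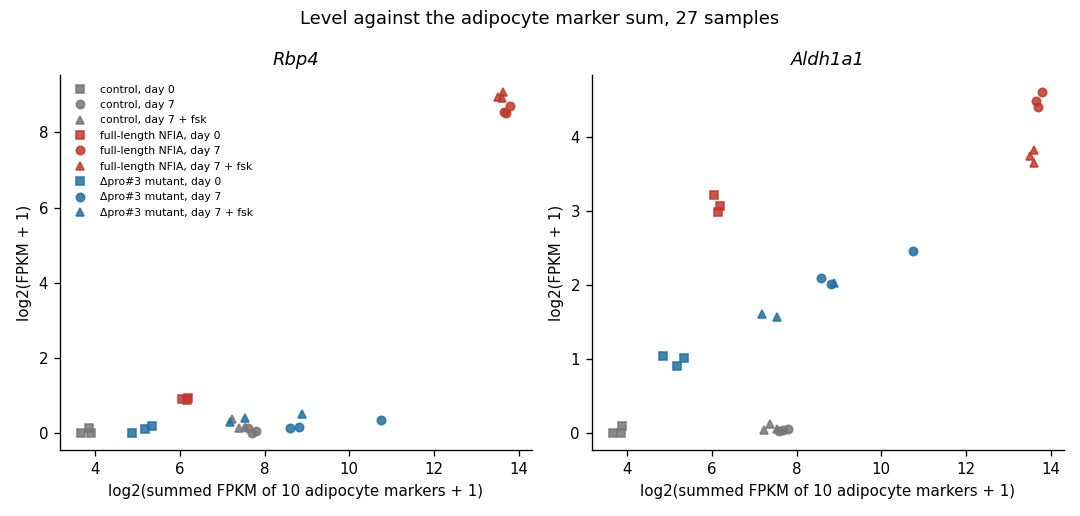
Levels of Rbp4 and Aldh1a1 as log2(FPKM + 1), vertical axis, against the log2 of the summed FPKM of 10 adipocyte markers + 1, horizontal axis, one point per sample, coloured by construct with a symbol per time point. The NFIA samples at day 7 form the group with sums of 11758 or more, and Δpro#3 replicate 1 at day 7 lies to the right of its 2 companions.

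Rbp7, an intracellular retinol carrier of adipose tissue, was near 0 at day 0 (0 to 0.297 FPKM in all samples) and low at day 7. NFIA samples at day 7 held 1.94, 2.45 and 2.65 FPKM, control samples 1.44, 0.800 and 1.29, and Δpro#3 samples 0.595, 0.460 and 0.380. The 3 groups did not overlap and lay in the order NFIA, control, Δpro#3. Rbp7 was higher with NFIA than in control (log2 0.63, SE 0.13, adjusted p = 0.00142) and lower with Δpro#3 than in control (log2 -0.55, adjusted p = 0.00601), both short of the 3-fold limit. After forskolin the NFIA samples were at 2.98, 1.54 and 2.99 FPKM, control at 0.766, 0.816 and 0.530, and Δpro#3 at 0.341, 0.1 and 0.464. NFIA again lay above control (log2 1.01, SE 0.175, adjusted p = 0.00033) and Δpro#3 below NFIA (log2 -1.41, adjusted p = 3.59e-05) without reaching 3-fold. The difference of Δpro#3 from control had an adjusted p of 0.0877. Without NFIA replicate 2, the lowest of its group, the difference of Δpro#3 from NFIA was -1.62 and past 3-fold, and that from control had an adjusted p of 0.0215.

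Stra6, the receptor for RBP4-bound retinol, was lowest with NFIA at day 0. Control samples were at 2.81, 2.45 and 2.76 FPKM, NFIA samples at 0.375, 0.533 and 0.582 FPKM, and Δpro#3 samples at 2.23, 1.81 and 2.38 FPKM. NFIA lay below both other groups in every sample, with no Δpro#3 sample reaching the control range. The difference between NFIA and control was -1.30 on the log2 scale (SE 0.0834, adjusted p = 1.14e-07), short of 3-fold in FPKM + 1, although by fragments it was 5.59-fold lower. Δpro#3 differed from control by -0.23 (adjusted p = 0.0345), a difference that no longer passed without control replicate 1 (-0.20) or 3 (-0.21) or without Δpro#3 replicate 1 (-0.25) or 2 (-0.15), and from NFIA by 1.07 (adjusted p = 9.62e-07). By day 7 Stra6 was at 0.408 FPKM or below in every sample and after forskolin at 0.163 FPKM or below. At day 7 all samples with either construct lay below all control samples, on 50 fragments in control, 8 with NFIA (5.94-fold lower, 95% exact interval 2.79 to 14.5) and 14 with Δpro#3 (4.16-fold lower, 2.26 to 8.14). After forskolin they again did not overlap control, on 26 fragments against 2 with NFIA (11.6-fold lower, 2.90 to 101) and 2 with Δpro#3 (13.9-fold lower, 3.48 to 121). Each of these 4 comparisons gave p = 0.1 in the two-sided exact permutation test, the smallest it allows, while NFIA and Δpro#3 overlapped each other. The receptor was therefore below the filter in the samples where Rbp4 was abundant.

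Aldh1a1, which oxidises retinaldehyde to retinoic acid, was close to 0 in control samples throughout, intermediate with Δpro#3 and highest with NFIA. At day 0 it stood at 0, 0.0729 and 0 FPKM in control, at 6.88, 7.39 and 8.24 FPKM with NFIA and at 1.01, 1.05 and 0.868 FPKM with Δpro#3. At day 7 these were 0.0217, 0.0393 and 0.0282 FPKM in control, 20.1, 23.4 and 21.4 FPKM with NFIA and 4.48, 3.29 and 3.05 FPKM with Δpro#3. No group overlapped another at either time. Aldh1a1 rose with NFIA against control by 3.05 at day 0 (SE 0.0707, adjusted p = 3.23e-11), by 4.46 at day 7 (SE 0.109, adjusted p = 3.49e-10) and by 3.67 after forskolin (SE 0.115, adjusted p = 4.66e-10), all on the log2 scale. It also rose with Δpro#3 against control at day 7 (log2 2.15, adjusted p = 5.71e-07) and after forskolin (log2 1.66, adjusted p = 1.5e-06), whereas at day 0 the difference of 0.95 (adjusted p = 7.4e-07) was short of 3-fold in FPKM + 1. By fragments Aldh1a1 was 37.8-fold higher with Δpro#3 than in control at day 0 (213 against 6 fragments, 95% exact interval 17.1 to 104). Δpro#3 was called lower than NFIA at day 0 (log2 -2.10, adjusted p = 1.53e-09) and after forskolin (log2 -2.0, adjusted p = 7.49e-08). Aldh1a1 passed the filter at day 0 by a small margin apart from NFIA, with a mean of 0.501 FPKM over the other samples.

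Within Δpro#3, replicate 1, which held the highest adipocyte marker sum, also held the highest Aldh1a1 at day 7 and after forskolin (3.07 FPKM against 2.04 and 1.97). Without it the day 7 difference from control was 2.02 and still called, and that after forskolin was 1.52 (adjusted p = 6.09e-07) and no longer past 3-fold. The 6 control fragments of Aldh1a1 at day 0 were all in replicate 2, the control library with the most Nfia fragments (1930 against 201 and 44). Without that library the NFIA difference at day 0 was 3.09. Aldh1a7, a close paralog whose reads unique mapping can lose or share, was at 1.40 FPKM or below in every sample at day 7.

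Aldh1a2, the other retinaldehyde dehydrogenase of the set, had 0 to 2 fragments in any group, so no difference was detectable at this depth. Aldh1a1 made up 79.2 to 80.7% of the summed FPKM of Aldh1a1, Aldh1a2 and Aldh1a3 with NFIA at day 0 and 96.0 to 98.2% at day 7. With Δpro#3 it was 16.5 to 18.1% at day 0, when Aldh1a3 led, and 53.9 to 58.3% at day 7. Control shares rest on sums of at most 0.343 FPKM and are not given.

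Dhrs3, which returns retinaldehyde to retinol, was expressed in every sample and at day 7 lay above control with full-length NFIA and below it with Δpro#3. Day 0 samples held 13.8, 10.5 and 12.9 FPKM in control, 23.4, 26.0 and 25.2 FPKM with NFIA and 18.6, 19.3 and 17.3 FPKM with Δpro#3. At day 7 control held 8.38, 8.72 and 8.74 FPKM, NFIA 19.8, 22.3 and 20.6 FPKM and Δpro#3 3.19, 2.41 and 2.48 FPKM. At day 0 both constructs lay above control, and at day 7 Δpro#3 lay below control in all samples while NFIA lay above. After forskolin Δpro#3 was lowest, at 1.23, 1.38 and 0.963 FPKM, against 6.29, 7.17 and 5.25 FPKM in control and 19.8, 18.1 and 20.6 FPKM with NFIA.

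Dhrs3 was higher with NFIA than in control by 0.95 at day 0 (adjusted p = 1.43e-06), 1.19 at day 7 (adjusted p = 5.6e-07) and 1.51 after forskolin (adjusted p = 2.91e-07) on the log2 scale, each short of 3-fold. Without control replicate 2 the forskolin value was 1.60 and past that limit. With Δpro#3 it was higher than in control at day 0 (log2 0.54, SE 0.083, adjusted p = 0.000218), lower at day 7 (log2 -1.39, SE 0.0842, adjusted p = 1.8e-06), and called lower after forskolin (log2 -1.72, SE 0.107, adjusted p = 6.82e-07). Compared with NFIA it was called lower with Δpro#3 after forskolin (log2 -3.23, adjusted p = 1.11e-09). Leaving out Δpro#3 replicate 1 at day 7 moved the difference from control to -1.48. The myotube marker sum was higher with Δpro#3 than with NFIA at day 7, and its part in the Dhrs3 values was not tested.

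**Figure D3:**
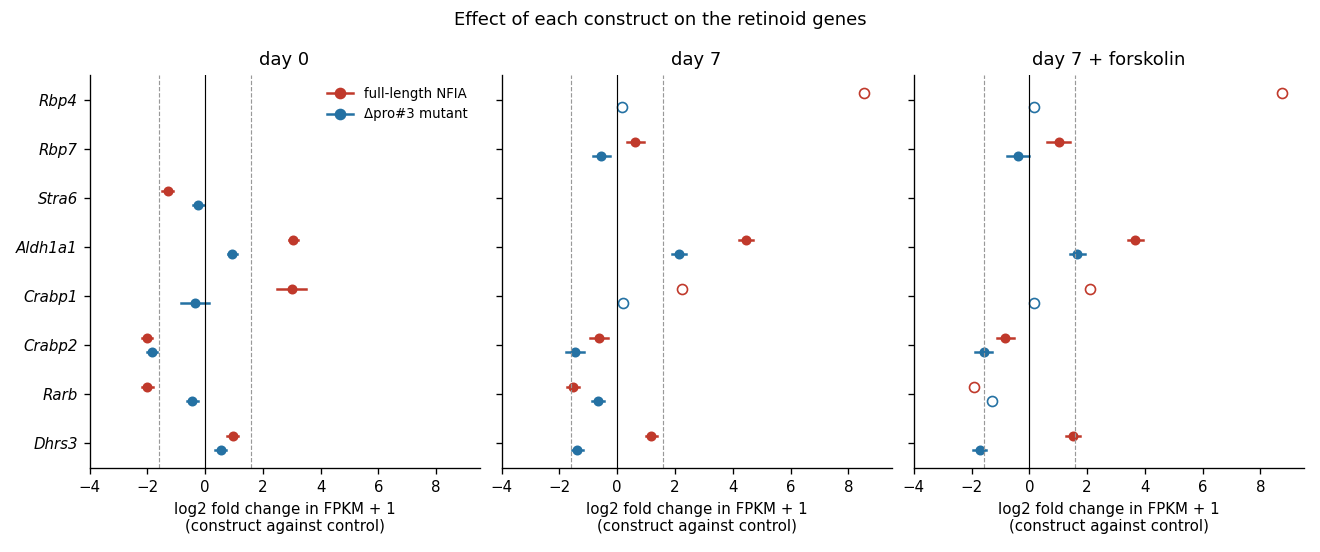
Fitted log2 fold change in FPKM + 1 of NFIA and of Δpro#3 against control (horizontal axis) for the retinoid genes (vertical axis) at day 0, day 7 and day 7 with forskolin; bars are 95% intervals, open circles are values given without a test, and dashed lines mark 3-fold. Aldh1a1 and Crabp1 lie to the right with NFIA in each panel, Rarb to the left, and Dhrs3 lies on opposite sides for NFIA and Δpro#3 at day 7 and after forskolin.

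Crabp1 and Crabp2, the cytoplasmic retinoic acid binding proteins, had different profiles. For Crabp1 the day 0 values were 0.526, 1.83 and 0.334 FPKM in control, 13.0, 12.3 and 14.6 FPKM with NFIA and 0.285, 0.456 and 0.481 FPKM with Δpro#3. The NFIA samples did not overlap the others, while Δpro#3 and control did. Crabp1 rose with NFIA at day 0 (log2 2.99, SE 0.222, adjusted p = 3.73e-07) and Δpro#3 did not pass the test against control (log2 -0.35, adjusted p = 0.191). The highest control value was again in replicate 2, and without that library the NFIA difference was 3.32 and that of Δpro#3 was -0.023. The other control and Δpro#3 samples were at 0.526 FPKM or below. Apart from NFIA, the day 0 mean of 0.652 FPKM passed the filter through that library. Calls of Crabp1 between NFIA and another group at day 0 were therefore close to bound to follow. At day 7 no fragment was counted in any control sample, compared with 3.00, 4.36 and 3.93 FPKM with NFIA and 0.110, 0.114 and 0.211 FPKM with Δpro#3. The 131 NFIA fragments against 0 in control made Crabp1 at least 46.0-fold higher, taking a floor of 3 fragments over the control group. After forskolin Crabp1 was at 4.59, 2.99 and 2.87 FPKM with NFIA and at 0.296 FPKM or below elsewhere, a difference of NFIA from control of 2.12 and of Δpro#3 from NFIA of -1.95. At day 7 and after forskolin Crabp1 passed the filter only through the NFIA samples, so these differences are given without a test. Δpro#3 was called lower than NFIA at day 0 (log2 -3.35, adjusted p = 2.54e-07).

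Crabp2 fell at day 0 with both constructs. Control held 54.6, 50.8 and 49.3 FPKM, NFIA 12.2, 11.1 and 12.7 FPKM and Δpro#3 12.4, 15.8 and 13.5 FPKM. Both constructs lay well below control and overlapped each other. The falls were 2.02 on the log2 scale for NFIA (SE 0.0773, adjusted p = 1.51e-09) and 1.82 for Δpro#3 (adjusted p = 8.41e-09), and Δpro#3 exceeded NFIA by 0.20 (adjusted p = 0.045). That difference did not pass without control replicate 2 or 3, NFIA replicate 1 or 2, or Δpro#3 replicate 2 or 3, and ranged from 0.11 (without Δpro#3 replicate 2) to 0.27 when single libraries were left out. At day 7 the samples were at 32.1, 26.1 and 24.9 FPKM in control, 17.3, 17.2 and 18.1 FPKM with NFIA and 7.27, 9.67 and 11.6 FPKM with Δpro#3. The groups were then separate, with Δpro#3 lowest. Both were lower than control without reaching 3-fold, NFIA by log2 -0.62 (adjusted p = 0.00227) and Δpro#3 by -1.46 (adjusted p = 2.64e-05), the latter reaching 3-fold at -1.60 without Δpro#3 replicate 3. After forskolin the differences were -0.83 (adjusted p = 0.000197) and -1.57 (adjusted p = 5.96e-06), and Δpro#3 differed from NFIA by -0.74 (adjusted p = 0.000535). The difference of Δpro#3 from control then passed 3-fold without control replicate 2 (-1.65) or Δpro#3 replicate 2 (-1.63) or 3 (-1.64).

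As a share of the summed FPKM of Crabp1 and Crabp2, Crabp1 was 0.674 to 3.48% in control at day 0, 51.5 to 53.6% with NFIA and 2.24 to 3.43% with Δpro#3. With NFIA it was 14.8 to 20.2% at day 7 and 10.5 to 13.2% after forskolin. The NFIA shares at day 0 therefore lay apart from those of both other groups.

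**Figure D4:**
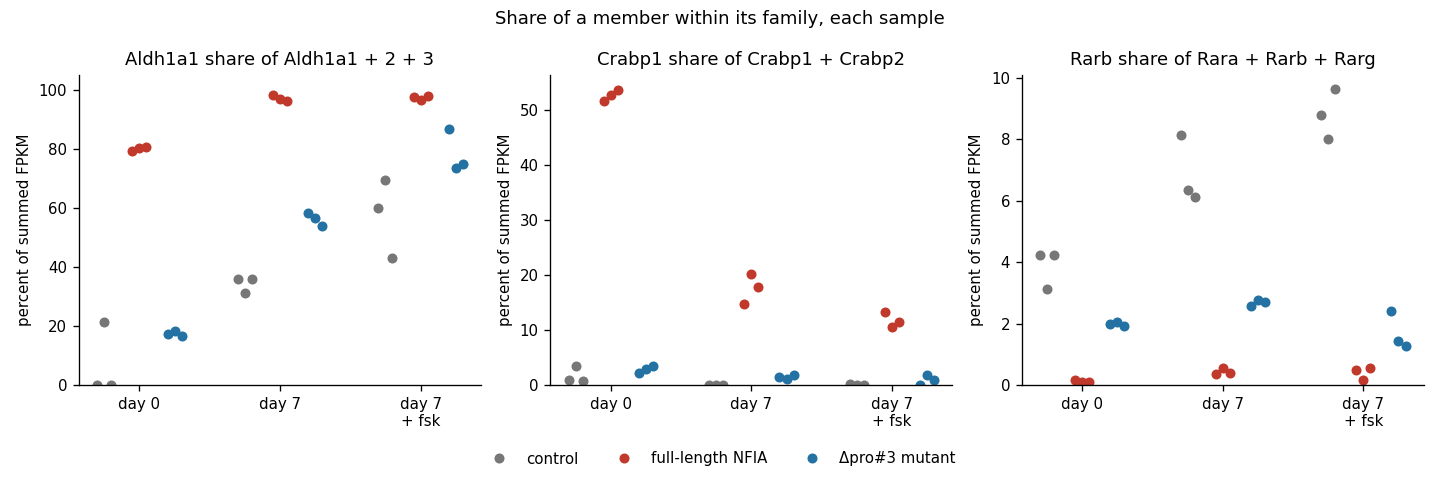
Share of a member in the summed FPKM of its family, in percent (vertical axis), by time point (horizontal axis), one point per sample and coloured by construct; control shares of Aldh1a1 rest on at most 0.343 FPKM. Crabp1 exceeds 50% of the Crabp pair only in NFIA samples at day 0, and Rarb lies below 1% of the retinoic acid receptors in NFIA samples at each time point.

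Rarb, a retinoic acid receptor, was lowest with NFIA at each time point. At day 0 control samples were at 3.66, 2.81 and 3.73 FPKM, NFIA samples at 0.145, 0.0840 and 0.0702 FPKM and Δpro#3 samples at 2.25, 2.3 and 2.15 FPKM. At day 7 the values were 3.06, 2.38 and 2.33 FPKM in control, 0.194, 0.309 and 0.232 FPKM with NFIA and 1.31, 1.24 and 1.21 FPKM with Δpro#3. The groups lay in the order control, Δpro#3, NFIA without overlap at both times. Rarb fell with NFIA by 2.0 on the log2 scale at day 0 (SE 0.0818, adjusted p = 2.65e-09, 31.8-fold lower by fragments). At day 7 the difference of -1.52 (SE 0.094, adjusted p = 1.94e-07) was short of the 3-fold limit. After forskolin Rarb passed the filter only through the control samples, so the differences from control, -1.91 with NFIA and -1.30 with Δpro#3, and that of Δpro#3 from NFIA, 0.61, are given without a test. Δpro#3 differed from control by -0.44 at day 0 (adjusted p = 0.000844) and -0.66 at day 7 (adjusted p = 0.000301), and was higher than NFIA by 1.56 at day 0 (adjusted p = 4.09e-08). The day 0 value lies at the 3-fold limit, which it passed without NFIA replicate 1 (1.59).

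Among the 3 retinoic acid receptors Rarg led in every sample, with 67.1 to 90.0% of their summed FPKM. The share of Rarb in control was 3.13 to 4.24% at day 0, 6.13 to 8.13% at day 7 and 8.0 to 9.63% after forskolin. With NFIA it was 0.0828 to 0.174% at day 0 and 0.361 to 0.568% at day 7, and with Δpro#3 it was 1.92 to 2.06% and 2.58 to 2.77%.

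Counted over the set, 4 of the 6 members that could be tested at day 0 were called with NFIA against control, Aldh1a1 and Crabp1 higher and Crabp2 and Rarb lower, where 5.24% of the 12105 genes tested were called. With Δpro#3 against control 1 of 6 was called, Crabp2 (background 2.18%), and with Δpro#3 against NFIA 2 of 6, Aldh1a1 and Crabp1 (background 2.05%, of which 1.12% lower). Apart from NFIA, Aldh1a1 and Crabp1 passed the day 0 filter by small margins, with means of 0.501 and 0.652 FPKM over the other samples. For Crabp1 that margin came from control replicate 2. Calls of these genes between NFIA and another group were therefore close to bound to follow. Members that passed the filter only through 1 group are left out of the later counts: Rbp4 and Crabp1 at day 7, and Rbp4, Crabp1 and Rarb after forskolin. At day 7, 1 of the other 5 was called with NFIA, Aldh1a1 (background 8.17%), and 1 of 5 with Δpro#3, again Aldh1a1 (background 1.44%). Between Δpro#3 and NFIA at day 7, the contrast that chose the set, Aldh1a1 (log2 -2.31) and Dhrs3 (log2 -2.57) were more than 3-fold lower with the mutant, as a description only (background 6.3%, of which 3.7% lower). After forskolin 1 of 4 was called with NFIA against control, Aldh1a1 (background 8.02%), 2 of 4 with Δpro#3 against control, Aldh1a1 higher and Dhrs3 lower (background 1.55%), and 2 of 4 with Δpro#3 against NFIA, Aldh1a1 and Dhrs3 (background 6.2%, of which 3.31% lower). These comparisons share their control or NFIA samples, and the 9 genes were chosen knowing such values, so the counts describe the set and do not test it.

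Forskolin itself called no member in control cells (background 0.392%), NFIA cells (0.743%) or Δpro#3 cells (0.588%). By adjusted p alone, which 20.5%, 55.4% and 35.8% of genes passed, Crabp2 was higher after forskolin in all 3, by log2 0.73 in control (adjusted p = 0.00193), 0.53 with NFIA (adjusted p = 0.00629) and 0.63 with Δpro#3 (adjusted p = 0.00369). Dhrs3 was lower in control (log2 -0.42, adjusted p = 0.00652) and with Δpro#3 (log2 -0.75, adjusted p = 2.43e-05), whereas with NFIA it was -0.10 (adjusted p = 0.441), a value that turned positive at 0.037 with another scaling of the libraries. The responses of Dhrs3 were not shown to differ from that in control, by 0.32 with NFIA (adjusted p = 0.0954) or -0.33 with Δpro#3 (adjusted p = 0.21). Without control forskolin replicate 2 the NFIA difference was 0.41 and passed (adjusted p = 0.0376). Aldh1a1 was lower after forskolin with NFIA, from the day 7 values above to 13.2, 12.4 and 11.5 FPKM (log2 -0.76, adjusted p = 4.39e-05), and with Δpro#3 (log2 -0.46, adjusted p = 0.00608). Its response in NFIA cells differed from that in control by -0.79 (adjusted p = 0.00188), with control near the floor. For Δpro#3 that difference was -0.49 and did not pass (adjusted p = 0.107), but passed at -0.63 without Δpro#3 forskolin replicate 1 (adjusted p = 0.0139). Rarb was higher after forskolin in control (log2 0.30, adjusted p = 0.0374) and lower with Δpro#3 (log2 -0.33, adjusted p = 0.0129), and this difference of responses was -0.63 (adjusted p = 0.0119). The control response of Rarb did not pass without control day 7 replicate 2 (0.26) or 3 (0.25) or without forskolin replicate 1 (0.28), 2 (0.34) or 3 (0.28), and the Δpro#3 response did not pass without Δpro#3 forskolin replicate 2 (-0.30) or 3 (-0.28). None of these differences of response reached 3-fold (background 0.572% for NFIA and 0.212% for Δpro#3). Rbp4 with NFIA was 0.39 higher on the log2 scale after forskolin, described without a test.

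From day 0 to day 7, leaving out Rbp4 and Rbp7, which passed the filter only through NFIA at day 7, no member of the 6 tested was called in control cells (background 6.7%), Crabp1 fell with NFIA (log2 -1.60, adjusted p = 7.74e-07, background 10.1%) and Dhrs3 fell with Δpro#3 (log2 -2.40, adjusted p = 2.47e-13, background 6.84%). Dhrs3 was also lower at day 7 in control (log2 -0.47, adjusted p = 0.000115) and with NFIA (log2 -0.24, adjusted p = 0.0195), both short of 3-fold. The fall of Crabp1 with NFIA lay at the limit and was short of 3-fold in FPKM + 1 without NFIA day 0 replicate 3 (-1.53) or NFIA day 7 replicate 1 (-1.47). In control Crabp1 was also lower at day 7 (log2 -0.84), from 57 fragments to 0, against 649 to 131 fragments with NFIA. The difference of these changes was -0.75 (limma, adjusted p = 0.02). It turned to 1.20 with a pseudocount of 0.1 and 2.34 with limma-voom, so a larger fall with NFIA was not shown. The lower Dhrs3 with NFIA did not pass without NFIA day 0 replicate 2 (-0.21) or 3 (-0.23) or NFIA day 7 replicate 1 (-0.21). For Dhrs3 the change in Δpro#3 cells differed from that in control by -1.93 (SE 0.125, 95% interval -2.19 to -1.66, adjusted p = 3.42e-09), a called difference where 2.36% of genes had one. For NFIA the same difference was 0.23 (adjusted p = 0.109), and 0.34 (adjusted p = 0.013) without control day 0 replicate 2. Crabp2 went from day 0 to day 7 by -0.88 in control and 0.52 with NFIA, and that difference of 1.39 (SE 0.173, adjusted p = 1.95e-06) was short of 3-fold, as were the other tested member differences for NFIA (background 7.62%). The difference of day 7 from day 0 in Stra6 was -1.49 in control, -0.49 with NFIA and -1.53 with Δpro#3, short of 3-fold in FPKM + 1 in each, and past it at -1.61 with Δpro#3 when Δpro#3 day 0 replicate 2 was left out. By fragments Stra6 was 8.50-fold lower at day 7 in control, 9.03-fold lower with NFIA and 28.4-fold lower with Δpro#3, so the smaller difference with NFIA on the FPKM + 1 scale was not seen in the fragments. In Rbp7 the difference was 0.99, 1.52 and 0.44 in that order of constructs, given without a test, and by fragments Rbp7 was 13.2-fold (95% exact interval 4.65 to 51.6), 17.6-fold (7.15 to 56.3) and 4.97-fold (1.56 to 20.8) higher at day 7.

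**Figure D5:**
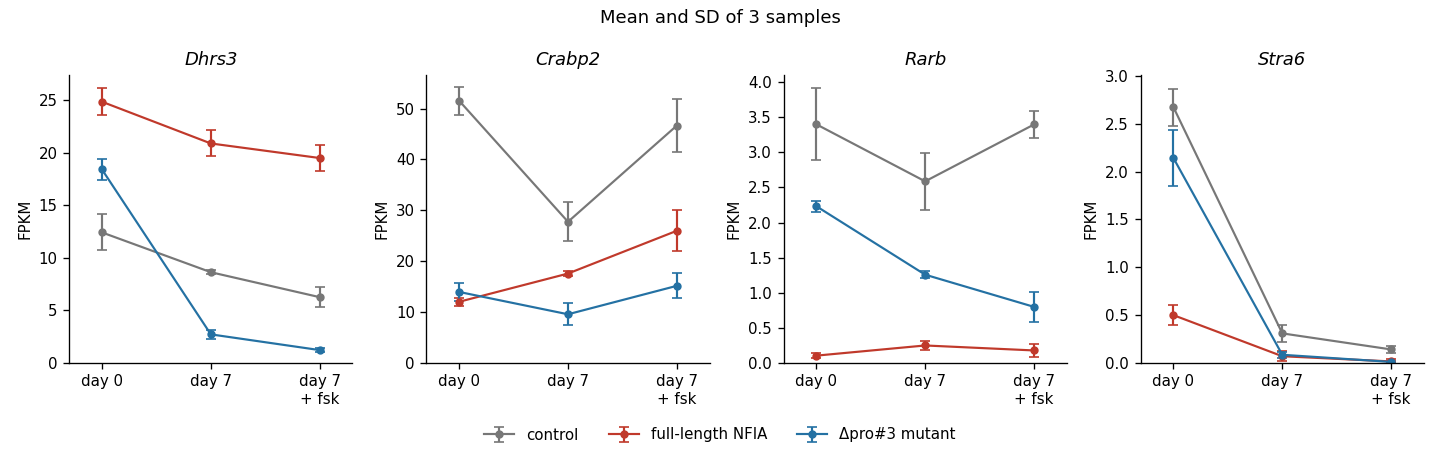
Mean FPKM and SD (n = 3) of Dhrs3, Crabp2, Rarb and Stra6 (vertical axis, starting at 0) at day 0, day 7 and day 7 with forskolin (horizontal axis), one line per construct. Dhrs3 drops with Δpro#3 between day 0 and day 7 from above control to below it.

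Other genes of retinoid handling were described from a list of 51 genes, all present in the files, of which 28 could be tested at each time point. At day 0, 3 were higher and 1 lower with NFIA than in control, where 5.24% of all genes tested were called: Lpl, which releases lipid from lipoproteins, went from 34.6 to 383 FPKM (log2 3.43), the retinol dehydrogenases Adh1 from 0.885 to 8.35 FPKM (log2 2.31) and Dhrs9 from 1.2 to 6.94 FPKM (log2 1.85), and Tgm2, a retinoic acid-induced transglutaminase, from 55.0 to 8.17 FPKM (log2 -2.61). The median change of the tested list genes was 0.34, beside 0.01 over all genes tested. With Δpro#3, Lpl (log2 3.07) and Aldh1a3, a further retinaldehyde dehydrogenase that went from 0.239 to 4.68 FPKM (log2 2.20), rose and Tgm2 (log2 -1.73) fell. Adh1 was called lower with Δpro#3 than with NFIA (log2 -2.28).

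At day 7, leaving out 3 list genes that passed the filter only through 1 group, 7 of the other 25 were called higher with NFIA and 0 lower (background 8.17%), among them the retinoic acid carrier Fabp5 (log2 5.53), the retinyl ester hydrolase Lipe (log2 4.61), the acyltransferase Dgat1 (log2 3.04), the retinol saturase Retsat (log2 2.5), Dhrs9 (log2 2.45) and Lpl (log2 2.44), with a median of 0.88 over the 28 tested beside -0.08 over all genes. With Δpro#3, Rarres2, a retinoic acid receptor responder that encodes chemerin, went from 23.8 to 124 FPKM (log2 2.31) while Adh1 went from 44.8 to 7.12 FPKM (log2 -2.64). Among these Δpro#3 samples, Adh1 and Rarres2 were highest in replicate 1. After forskolin, leaving out 1 such gene, 6 of 27 were called higher with NFIA (background 8.02%), led by Fabp5 (log2 5.60), Dgat1 (log2 4.06) and Lipe (log2 3.93). With Δpro#3, Rarres2 rose (log2 1.64) and Adh1 fell (log2 -4.0), and against NFIA 7 of 27 were called lower and 0 higher (background 6.2%). Forskolin raised 2 list genes in NFIA cells, Dgat1 from 132 to 508 FPKM (log2 1.93) and Cyp26b1, which degrades retinoic acid, from 0.289 to 2.96 FPKM (log2 1.61), where 0.743% of all genes were called, and 0 were called in control or Δpro#3 cells. Dgat1 was also higher after forskolin with Δpro#3 (log2 1.58, at the limit) and in control (0.91). For Cyp26b1 these values were 0.65 and 0.17. The response in NFIA cells differed from that in control by 1.02 for Dgat1 (limma, adjusted p = 4.21e-05). For Cyp26b1 it differed by 1.44 (adjusted p = 4.78e-06), and both differences were short of 3-fold. The count of 2 was 1 without NFIA day 7 replicate 2, without NFIA forskolin replicate 1 or with a minimum mean of 5 FPKM. That of 0 in Δpro#3 cells was 1 without Δpro#3 day 7 replicate 1 or Δpro#3 forskolin replicate 2 or 3, and 1 or 2 with other scaling, pseudocount or method. Several of these genes act mainly in lipid metabolism, and the adipocyte marker sum was highest in the same NFIA groups. Its part in these values was not tested.

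The genes most like Rbp4 were those with the highest Pearson correlation over the 9 group means of log2(FPKM + 1), among 10186 genes with a group mean of at least 5 FPKM. They were Ces1f (r = 0.998), a carboxylesterase of a gene family with close copies, Tigd3 and 6030408B16Rik (both 0.996), the lipid droplet gene Cidea and Snhg11 (both 0.996), and Pkd2l1, Krt79 and Apmap (each 0.995). Of all these genes, 30 had r above 0.99. Over all 27 samples 7 of the 8 were again among the leading 8, but by rank correlation over the group means none was. The 9 means share their libraries' depth and the high NFIA level at day 7, so the correlations describe a shared pattern of 2 high groups. Ces1f, for instance, averaged 54.7 FPKM at day 7 and 60.2 FPKM after forskolin with NFIA and 0.154 FPKM at day 0. Of the members, Rbp7 (r = 0.86) and Aldh1a1 (r = 0.80) were nearest to Rbp4, Crabp1 (0.51) and Dhrs3 (0.47) were further away, and Stra6 (-0.41) and Rarb (-0.67) ran against it.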

How the data were processed

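RNA-seq was made on 27 samples in 9 groups, assigned from the deposited labels. The authors aligned reads with STAR 2.5.3a to mm9, counted uniquely mapped fragments and deposited FPKM values per gene with transcript lengths in another column. Whole fragment counts were recovered from FPKM and length (tolerance 0.05) for pooled ratios, exact intervals and limma-voom. The fits used limma 3.58.1 in R 4.3.3 on log2(FPKM + 1), with 1 mean per group and a mean-variance trend, separately for day 0, day 7 and day 7 with forskolin (9 samples each), and over 18 samples for forskolin responses and change over 7 days. Named were all 9 members, at most the 6 most changed list genes called without overlap in each comparison, and the 8 genes most like Rbp4. Members and lists were chosen with earlier results of these data known. In a test on simulated data, 100% of 200 genes changed 8-fold were recovered for NFIA against control at day 0 (11909 genes, 0 false calls) and 98.5% for the difference of forskolin responses between NFIA and control (12031 genes, 3 false calls). Only genes above 5 FPKM in control were changed, with a fixed spread. These rates therefore do not apply to members below that level. Leaving out of the counts those genes that passed the filter only through 1 group was chosen after seeing the data. Alternatives changed the pseudocount, filter, scaling, trend, method and replicates. Replicates differed beyond sampling noise (chi-square per gene 1.52 to 14.2 over 27 pairs). Protein sequences and a Crabp2 promoter were not used here, and 1 gene of the list is not reported here. Exact intervals of fragment ratios cover counting error only, and limma intervals the spread between replicates.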

Additional observations from a re-analysis of the deposited data

Results flagged for a closer look

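The change of Dhrs3 between day 0 and day 7 differed between Δpro#3 and control cells. Dhrs3 fell by 2.40 on the log2 scale with Δpro#3 and was lower by 0.47 in control, so the difference of the changes was -1.93 (limma, adjusted p = 3.42e-09), past the threshold and the 3-fold limit for such a difference. All 3 Δpro#3 samples at day 7 lay below all 3 control samples, and at day 0 all 3 lay above them.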

How the results depend on the processing

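The counts below are over all members and list genes tested, those that passed the filter only through 1 group included. They moved mainly with the pseudocount, the filter and the count-based method. In counts of called members, a minimum mean of 5 FPKM, which tests fewer genes, left 1 of 4 with NFIA against control at day 0, 0 of 2 with Δpro#3 against NFIA at day 0, 1 of 2 with NFIA against control at day 7, 1 of 4 after forskolin, 1 of 2 with Δpro#3 against control and 2 of 4 against NFIA after forskolin, and 0 of 1 for NFIA over 7 days. A pseudocount of 0.1 and limma-voom both gave 2 in place of 1 with Δpro#3 against control at day 0, 4 in place of 2 against NFIA, 4 in place of 2 against control after forskolin, and over 7 days 3 in place of 0 in control, 3 in place of 1 with NFIA, 4 in place of 1 with Δpro#3 and 3 in place of 1 for the difference of Δpro#3 from control. With Δpro#3 against control at day 7 they gave 2 and 3 in place of 1, and limma-voom gave 2 in place of 0 for the difference of NFIA from control over 7 days. For list genes, NFIA against control at day 0 gave 7 with a pseudocount of 0.1, 7 with limma-voom and 2 with the stricter filter in place of 4, and Δpro#3 against NFIA gave 3, 3 and 0 in place of 1. Limma-voom gave 5 in place of 3 with Δpro#3 against control at day 0, 11 in place of 7 with NFIA after forskolin and 6 in place of 3 in control over 7 days, and the stricter filter gave 2 in place of 4 with Δpro#3 at day 7 and 1 in place of 2 for forskolin in NFIA cells. Forskolin in Δpro#3 cells called 2, 2 and 1 list genes in place of 0 with a pseudocount of 0.1, limma-voom and median-ratio scaling. Leaving out each replicate gave 1 to 2 members with Δpro#3 against control at day 7 (2 without Δpro#3 day 7 replicate 3, Crabp2 then at -1.60), 1 to 3 after forskolin (1 without Δpro#3 replicate 1) and 1 to 2 for Δpro#3 over 7 days (2 without Δpro#3 day 0 replicate 2, Stra6 then at -1.61), and 1 to 2 and 0 to 1 list genes for forskolin in NFIA and Δpro#3 cells. Directions turned only for small or floor-bound differences: with limma-voom, Rbp7 for forskolin in NFIA cells (-0.016) and in Δpro#3 against control (-0.034) and Stra6 over 7 days with NFIA against control (-0.13, 1.01 in FPKM + 1); with median-ratio scaling, Crabp1 (0.011) and Dhrs3 (0.037) for forskolin in NFIA cells; and Crabp1 over 7 days with NFIA against control (-0.75), 1.20 with a pseudocount of 0.1 and 2.34 with limma-voom. Leaving out replicates, Rbp7 for forskolin in NFIA cells ranged from -0.068 to 0.26, Crabp2 for the response of Δpro#3 against control from -0.27 to 0.033 and Stra6 over 7 days for Δpro#3 against control from -0.12 to 0.015. The scaling moved the median of all genes by 0.16 for NFIA against control after forskolin, -0.12 for Δpro#3 against NFIA after forskolin, 0.11 for forskolin in NFIA cells, and 0.13 and 0.11 over 7 days with NFIA and Δpro#3. Replicate numbers did not pair the samples (correlations of same-numbered deviations -0.173 to 0.131). A fit with the replicate block kept the side of the threshold for 113 of 114 member values, the exception being Crabp2 with Δpro#3 against NFIA at day 0 (log2 0.20, adjusted p 0.0713 with the block and 0.045 without). At this depth, differences of Aldh1a2, and of Stra6 at day 7, were limited by the fragments counted. The cause of these shifts was not tested.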
